A study of Mus musculus with 6 samples.

Results

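The genes described here were 40 genes of glucose catabolism and of the transcriptional response to low oxygen, followed in brown preadipocytes and in the adipocytes that formed from them. They were chosen as a fixed list of gene symbols covering glycolytic enzymes, glucose and lactate transporters and known targets or regulators of the hypoxia-inducible factors (HIF). All 40 were found among the 26264 gene symbols listed in each of the 6 count tables. They were grouped by function into 8 role groups, from the entry of glucose to the oxygen sensors.

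The libraries came from a wild-type Bl6N mouse line of brown preadipocytes, grown from the stromal vascular fraction of interscapular brown fat and immortalized with SV40 large T antigen. Cells were left untreated or were exposed to 5.5 nM FGF8, a paracrine fibroblast growth factor, for 48 h, and were harvested directly (D0), on D3, or after 7 days on differentiation medium (D7). The induction medium held insulin, T3, IBMX, dexamethasone, indomethacin and rosiglitazone in every differentiated culture. By the paper's count from the end of pretreatment, D3 followed 2 days of induction and 1 day on differentiation medium. By the same count the D7 cells were harvested on day 9, since 2 days of induction came first. The comparison between the treatments asks how a pulse of FGF8 on preadipocytes changes gene expression before and during differentiation. Each of the 6 combinations of treatment and day is 1 library from 1 immortalized line, so no difference within a day has a replicate check. Whether the libraries came from separate cultures is not stated, and p-values below measure only the spread among these 6 samples. The labels call the controls untreated where the methods call them vehicle-treated, and the growth text attached to the samples describes primary white cells, against their titles. The labels name no low-oxygen condition.

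The libraries held between 16403254 and 38551551 counts, with the lowest totals at D0 in both arms and in the untreated D3 library. Adipoq, the adipocyte hormone adiponectin, held 1.47 normalized counts in the untreated D0 library and 0 in the FGF8 D0 library, against 18265 and 22015 at D7. Ucp1, the brown fat uncoupling protein, held 0, 319 and 91306 normalized counts at D0, D3 and D7 without FGF8 and 1328, 4287 and 99587 with it. Normalized counts are counts divided by the median-of-ratios size factor of the library.

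Glycolysis splits glucose into pyruvate, which is either reduced to lactate and exported or oxidized in mitochondria, where pyruvate dehydrogenase kinases hold back its entry. Brown adipocytes take up glucose avidly, in part through the insulin-responsive transporter GLUT4, and use it for lipid synthesis and heat production. HIF is a dimer of an oxygen-labile alpha subunit and a stable beta subunit. In normal oxygen the prolyl hydroxylases of the EGLN family mark the alpha subunit for destruction through VHL, and in low oxygen it accumulates and binds the core sequence ACGTG or GCGTG near genes of glycolysis, pH control, angiogenesis and mitophagy. HIF1A is controlled mostly at the protein level, which RNA counts do not measure.

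The upstream sequences of 5 members are shown because these genes carried the contrasts between FGF8 and untreated cells that follow. Each line gives the 250 bases before the start of the canonical GENCODE M39 transcript in GRCm39, 5′ to 3′ on the strand of the gene, with HIF core letters in capitals (ACGTG or GCGTG, or CACGT or CACGC where the match lies on the other strand). The windows lie at chr7:138511254-138511503 on the minus strand for Bnip3, a mitophagy receptor, at chr12:54250674-54250923 on the minus strand for Egln3, a HIF prolyl hydroxylase, at chrX:105230456-105230705 on the plus strand for Pgk1, phosphoglycerate kinase, at chr7:110226608-110226857 on the plus strand for Adm, the vasodilator peptide adrenomedullin, and at chr4:43506716-43506965 on the plus strand for Car9, a membrane carbonic anhydrase.
Bnip3: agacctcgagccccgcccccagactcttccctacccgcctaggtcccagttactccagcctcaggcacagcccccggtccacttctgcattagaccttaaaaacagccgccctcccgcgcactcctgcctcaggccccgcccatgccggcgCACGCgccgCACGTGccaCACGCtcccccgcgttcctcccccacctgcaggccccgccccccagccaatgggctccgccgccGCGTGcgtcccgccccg
Egln3: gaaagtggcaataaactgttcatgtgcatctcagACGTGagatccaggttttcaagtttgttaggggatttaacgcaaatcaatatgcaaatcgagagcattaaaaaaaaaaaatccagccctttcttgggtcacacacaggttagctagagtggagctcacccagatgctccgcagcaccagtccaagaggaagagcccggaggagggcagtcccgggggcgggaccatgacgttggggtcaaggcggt
Pgk1: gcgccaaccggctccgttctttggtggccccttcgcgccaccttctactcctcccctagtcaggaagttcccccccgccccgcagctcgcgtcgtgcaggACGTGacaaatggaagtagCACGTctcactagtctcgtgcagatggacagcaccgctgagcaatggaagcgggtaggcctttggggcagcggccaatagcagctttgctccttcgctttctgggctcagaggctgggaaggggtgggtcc
Adm: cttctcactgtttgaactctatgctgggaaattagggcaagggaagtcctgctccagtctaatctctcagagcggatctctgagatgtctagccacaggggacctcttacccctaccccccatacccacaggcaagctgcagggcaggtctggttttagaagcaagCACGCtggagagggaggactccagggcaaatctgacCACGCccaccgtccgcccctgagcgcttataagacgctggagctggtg
Car9: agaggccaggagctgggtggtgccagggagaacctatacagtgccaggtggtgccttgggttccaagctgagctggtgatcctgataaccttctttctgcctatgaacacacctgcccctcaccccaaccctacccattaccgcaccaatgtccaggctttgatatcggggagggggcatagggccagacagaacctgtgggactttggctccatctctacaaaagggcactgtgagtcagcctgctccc

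The core letters were found 5 times in the Bnip3 window, with each strand counted where they form the palindrome CACGTG, and 2 times in those of Pgk1 and Adm, 1 time in that of Egln3 and not at all in that of Car9. Among all 40 members, 24 windows (60%) held at least 1 match on either strand, against 44.4% of 19091 promoters of protein-coding genes, and 40% of the members against 19.7% of all promoters held 2 or more. Known HIF targets were part of the list by choice, so these shares are not an independent test. ACGTG is also part of the E-box CACGTG, which other factors bind. A letter match in a window of this length is a description and not a binding site.

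Some values carry a limit from sequence. In 10 members, stretches of 100 coding bases occur exactly elsewhere in GRCm39, so reads from them could be split or lost in counting. The share of such windows was 100% for Gapdh (82 places), Pgk1 (3 places) and Pgam1 (3 places), 69.3% for Eno1 and 33.1% for Bnip3, and between 1.70% and 11.7% for Ldhb, Pkm, Gpi1, Ldha and Tpi1. The other 30 members held none. Gapdh, usually among the most abundant transcripts, had only 91 counts in the untreated D0 library, and the levels of Gapdh, Pgk1, Pgam1, Eno1 and Bnip3 are uncertain. The strand setting of the counting is not given in the sources used here, and exons of 14 members overlap a listed gene on the opposite strand. The overlap takes 100% of the Pgam2 exon bases (Dbnl), 63.3% of Ndufa4l2 (Shmt2), 61.7% of Ankrd37 (Ufsp2), 41.6% of Gapdh (Iffo1), 40.1% of Slc16a3 (Csnk1d) and 39.8% of Pfkl (Cfap410). Annotated antisense transcripts, not analysed here, also cross Adm and Car9. On the same strand, annotated transcripts that are not listed genes cover 43.1% of the Aldoa exon bases (Gm57854), 23.5% of Pkm (Gm49759) and 20.6% of Pfkm (Gm26513).

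Before and early in differentiation, the FGF8 libraries held more RNA of most glycolytic genes and of several HIF targets than the untreated libraries, and by D7 most of these differences were small. At D0, 16 of 39 members whose pair averaged 20 normalized counts or more were 2-fold or more higher with FGF8 and 2 were lower, where 7.27% and 10.8% of all 12657 genes at that level were. The median difference of log2(normalized count + 1) was 0.75 for the members and 0.0544 for all genes. At D3 the counts were 20 higher and 2 lower of 38, against 3.8% and 12.1% of all genes, with a median of 1.07 against 0.0815. At D7 they were 3 and 3 of 40, against 1.12% and 8.74%, with a median of 0.26 against 0.0835. Without the 10 members that have repeated coding sequence, the D3 count of higher members was 11 among the other 30, some of them below the floor. Scaling by total counts shifted the median of all genes at D3 from 0.0815 to -0.0255 and gave 17 higher members, with Ldhb (0.97), Pdk4 (0.97) and Pfkfb1 (0.98) then just under 1 on the log2 scale. Together the members took 0.333%, 0.773% and 2.70% of all counts at D0, D3 and D7 in the untreated arm and 0.618%, 1.66% and 3.28% in the FGF8 arm. The 95% exact binomial (Clopper-Pearson) intervals of these shares, which like all such intervals here cover counting error only, did not overlap. By role group, the 2-fold differences at D0 took in both transporters above the floor (2 higher and 0 lower of 2), most of the lactate and pyruvate genes (4 and 1 of 6) and of the HIF targets outside glycolysis (4 and 1 of 7), and fewer of lower glycolysis (3 and 0 of 7). At D3 they were most frequent among the aldolase to Gapdh steps (4 and 0 of 4), the lactate and pyruvate genes (4 and 0 of 6) and hexose phosphorylation (2 and 0 of 3), with 3 and 1 of 7 in lower glycolysis and 3 and 0 of 6 among phosphofructokinases and their regulators. Of the 37 members above the floor on all days, 23 were higher with FGF8 on every day by any amount and 4 were lower, against 33.0% and 21.7% of all genes. The members left out were Slc2a4 at D0 and Car9 and Ndufa4l2 at D3. Whether the difference at D3 is larger than at D7 was not tested, since each day has 1 library per arm.

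**Figure D1:**
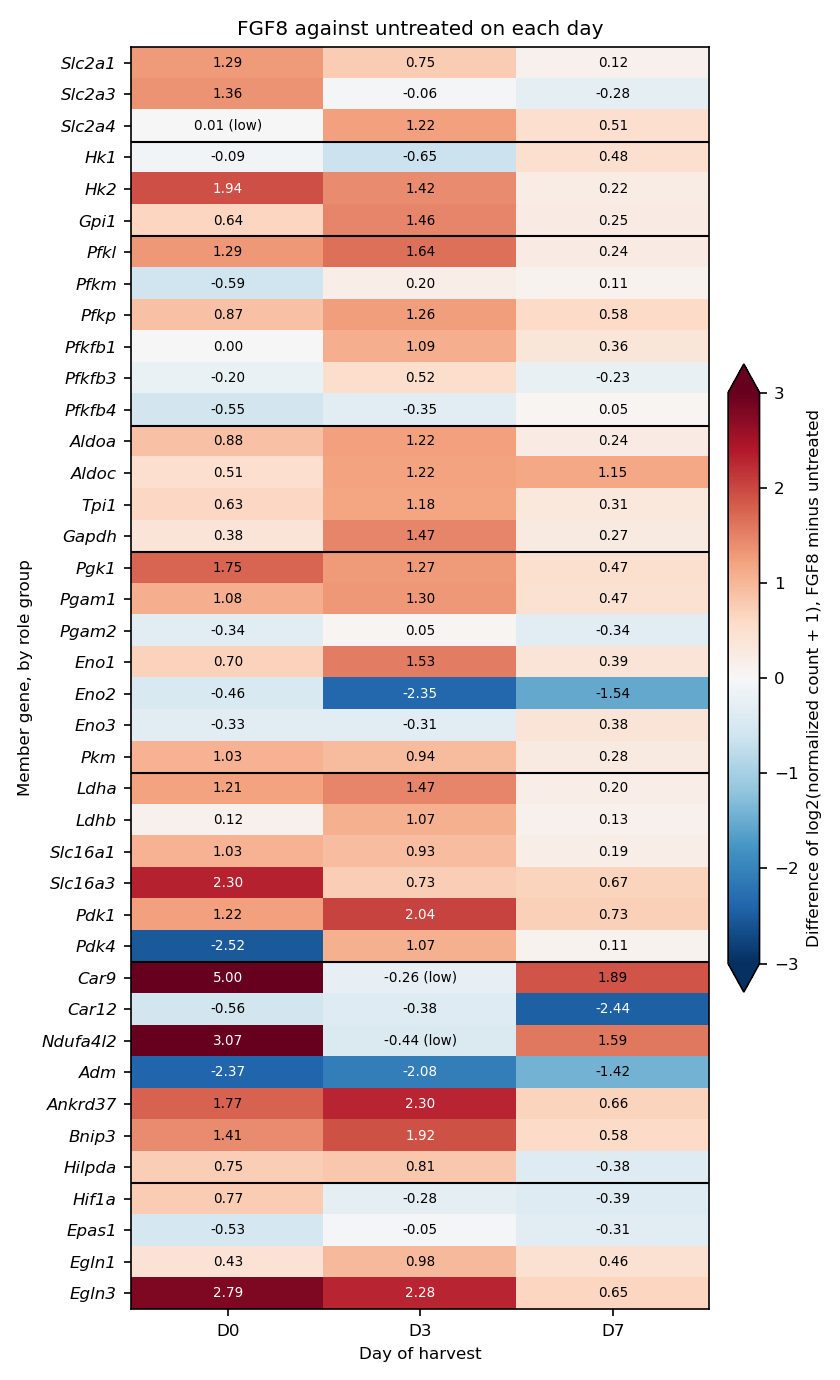
FGF8 minus untreated difference in log2(normalized count + 1) (color and printed value) for the 40 members (rows, by role group between black lines) on each day (columns), with 1 library per arm and pairs with a mean under 20 normalized counts marked low. Red cells fill most of the D0 and D3 columns and are paler at D7, and Adm is blue on all 3 days (-2.37, -2.08 and -1.42).

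Cell identity markers also differed between days and arms, not always in the direction of the members. At D0 the 8 adipocyte markers summed to 8982 normalized counts without FGF8 and 2546 with it, of which Lpl held 8251 and 2025. The summed level of the 8 adipocyte markers was 382525 normalized counts without FGF8 and 664188 with it at D3, and 8 of 8 were higher with FGF8, 2 of them by 2-fold. At D7 it was 519903 and 603609, with none 2-fold apart. The 8 brown adipocyte markers summed to 5044 and 13869 at D3, with 4 of 7 tested 2-fold higher, against 3.8% of all genes. The 7 preadipocyte markers summed to 135219 and 36193 at D0, where 4 of the 7 were 2-fold lower with FGF8, against 10.8% of all genes. Their sums were 42719 and 15897 at D3 and 35268 and 13947 at D7. Ebf2 went the other way on every day, with 2315, 3412 and 4246 untreated and 2500.3, 5175 and 6805 with FGF8, and Thy1 at D0, with 2773 and 4427. Over the days, Pdgfra, Pdgfrb and Dlk1 fell with FGF8 in edgeR (adjusted p = 0.0499, 0.0464 and 0.0448). The part of these differences in the values of the glycolytic members was not tested, and in a bulk library fewer cells of a type and less RNA per cell cannot be told apart.

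Ptprc and Adgre1 of macrophages held at most 1 count in any library, and the 8 macrophage markers summed to between 139 and 313. Cd68 held 39.7, 81.5 and 100 normalized counts untreated and 35.8, 91.3 and 101 with FGF8, and rose from D0 to D3 in edgeR (adjusted p = 0.0363). Cd14 held 188 and 127 at D0 without and with FGF8. Myod1 and Ckm of skeletal muscle were at 0 in all 6 libraries, and 7 or 8 of the 10 muscle markers had no count in each. Des, the intermediate filament desmin, held 7.34, 82.7 and 649 normalized counts untreated and 8.96, 184 and 1178 with FGF8, and Acta1, skeletal actin, reached 38.3 and 48.8 at D7. Des and Acta1 rose from D0 to D3 in edgeR (adjusted p = 0.00314 and 0.0105), and their part in the members' values was not tested. Among endothelial markers Pecam1 and Cdh5 held at most 12.8 normalized counts, while Kdr held 1288 in the untreated D0 library and 7.68 in the FGF8 D0 library, and Tek 326 and 42.2.

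Of the glucose transporters, the basal forms were higher with FGF8 at D0 and the insulin-responsive form at D3. Slc2a1, the basal glucose transporter GLUT1, held 1345, 837 and 2648 normalized counts at D0, D3 and D7 without FGF8 and 3289, 1409 and 2884 with it. It was 2.44-fold higher with FGF8 at D0 (95% exact binomial interval of the ratio 2.27 to 2.64) and within 1.09-fold at D7. Slc2a3, the high-affinity transporter GLUT3, held 79.3, 149 and 110.02 without FGF8 and 205, 142 and 90.2 with it, 2.58-fold higher at D0 and slightly lower later. Slc2a4, the insulin-responsive GLUT4 of fat and muscle, held only 13 and 15 counts at D0, whereas at D3 it held 3055 normalized counts without and 7130.3 with FGF8, a ratio of 2.33 (2.23 to 2.44). At D7 the Slc2a4 values were 7461 and 10595, so the D7 libraries were above the D3 libraries in both arms.

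The first committed steps differed by isoform. Hk2, a hexokinase that binds mitochondria and is known as a HIF target, held 247, 3032 and 6356 normalized counts over the untreated days and 952, 8098 and 7392 over the FGF8 days. It was 3.86-fold higher with FGF8 at D0 (3.26 to 4.59), 2.67-fold at D3 (2.56 to 2.79) and 1.16-fold at D7. Hk1, the housekeeping hexokinase, did not follow it, with 2524, 2273 and 7298 untreated and 2372, 1445 and 10166 after FGF8. At D3 the FGF8 library was the lower of the pair for Hk1, 1.57-fold, and the higher for Hk2. Gpi1, glucose-6-phosphate isomerase, held 4708, 11101 and 52823 without FGF8 and 7352, 30478 and 62951 with it, with its largest ratio, 2.75-fold, at D3.

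Phosphofructokinase makes fructose bisphosphate and is the main control point of the pathway, and the PFKFB enzymes set its activator. Pfkl, the liver-type subunit, held 1879, 6073 and 35498 normalized counts without FGF8 and 4605, 18956 and 41972 with it, a ratio of 2.45 at D0 and 3.12 at D3. Pfkp, the platelet-type subunit, held 1349.9, 1215 and 10276 without FGF8 and 2466, 2911 and 15364 with it, and was 2.39-fold higher at D3. The muscle-type subunit Pfkm went the other way at D0, at 2308 without and 1536 with FGF8, and was within 1.15-fold of its control later. Of the 3 regulators, Pfkfb1 was 2-fold higher with FGF8 at D3 only, with 225, 1410.2 and 2846 untreated and 225, 3004 and 3646 with FGF8. Pfkfb3 held 399.5, 6054 and 5542 untreated and 347, 8665 and 4719 with FGF8. Pfkfb4, a hypoxia-responsive enzyme in many cells, held 538, 379 and 368 untreated and 366, 298 and 382 with FGF8. Neither was 2-fold apart on any day, and Pfkfb4 was lower with FGF8 at D0 and D3. None of the regulators was 2-fold apart at D0, where Pfkl was.

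From aldolase to Gapdh, glyceraldehyde phosphate dehydrogenase, Aldoa, Aldoc, Tpi1 and Gapdh were 2-fold or more higher with FGF8 at D3 and none was at D0. Aldoa, the main aldolase, held 7349, 35456 and 95118 normalized counts over the untreated days and 13510.2, 82664 and 112215 over the FGF8 days, 2.33-fold higher at D3 (2.30 to 2.36). Aldoc, the isoform of brain, was 2.22-fold higher at D7 (2.01 to 2.46), with 157, 30.5 and 423 untreated against 224, 72.3 and 939.8 with FGF8 over the days, and its D3 values rest on 24 and 103 counts. It was the only member of this group past 2-fold at D7. Tpi1, triose phosphate isomerase, held 11588, 9075 and 35477 without FGF8 and 17954, 20602 and 43976 with it, and Gapdh held 134, 2419 and 9197 without FGF8 and 174, 6682 and 11063 with it.

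Lower glycolysis makes ATP and pyruvate. Pgk1, at chrX:105230706-105247305, held 3046, 12003 and 54359.6 normalized counts at D0, D3 and D7 without FGF8 and 10249, 29037 and 75309.8 with it. Its ratio was 3.36 at D0 (3.21 to 3.53), 2.42 at D3 and 1.39 at D7. Pgam1, phosphoglycerate mutase, held 448, 6982 and 22851 untreated and 949.9, 17186 and 31612 with FGF8, 2.12-fold and 2.46-fold higher at D0 and D3. Both were closest to their controls at D7. Eno1, the ubiquitous enolase, held 2670.4, 22621 and 92898 untreated and 4348, 65122 and 122091 after FGF8, 2.88-fold higher at D3 (2.83 to 2.93). Pkm, pyruvate kinase, held 11607, 21532 and 110208 without FGF8 and 23764, 41268 and 133750 with it, 2.05-fold higher at D0. The 3 other members of the group, whose RNA is known best from muscle or neurons, did not share this. Eno2, the neuronal enolase, was lower in the FGF8 library on every day, with 893, 536 and 336 untreated against 649, 105 and 115 with FGF8, which is 5.12-fold lower at D3 (ratio 0.195, 0.161 to 0.236) and 2.93-fold lower at D7. Pgam2, whose exons lie wholly within the opposite-strand gene Dbnl, and Eno3 showed no such difference. Eno3, the muscle enolase, held between 209.96 and 378 and Pgam2, the muscle mutase, between 35.8 and 63.2 over the 6 libraries, with no pair 2-fold apart.

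Ldha and both lactate transporters were 2-fold or more higher with FGF8 before differentiation. Ldha, which reduces pyruvate to lactate, held 7788, 14290.1 and 63510 normalized counts over the untreated days and 17994, 39469.9 and 73126 over the FGF8 days, 2.31-fold higher at D0 (2.24 to 2.39) and 2.76-fold at D3. Ldhb, which favors the reverse reaction, showed no such difference at D0 (692 and 751), but was 2.10-fold higher at D3. Slc16a3, the lactate exporter MCT4 and a known HIF target, had a D0 ratio of 4.93 (4.27 to 5.72), with 322, 104 and 604 untreated against 1586, 173 and 963 with FGF8. Its overlapping neighbor Csnk1d was 4211 and 4138 at D0, and the part of its reads in the Slc16a3 counts was not tested. Slc16a1, the monocarboxylate transporter MCT1, held 1513, 4117 and 15714 without FGF8 and 3098, 7869 and 17977 with it, 2.05-fold higher at D0 and 1.91-fold at D3.

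Pdk1 and Pdk4, the pyruvate dehydrogenase kinases among the members, differed in opposite directions at D0. Pdk2 and Pdk3, outside the members, held 295 and 1854 normalized counts at D0 without FGF8 and 175 and 1845 with it. Pdk1, the HIF-responsive kinase, was higher with FGF8 on every day, with 1473, 1516 and 10806 normalized counts against 3443, 6223 and 17864. Its ratio was 2.34 at D0 (2.17 to 2.51), 4.11 at D3 (3.86 to 4.37) and 1.65 at D7. Pdk4, the kinase of fasting and fatty acid use, was 5.75-fold lower with FGF8 at D0 (ratio 0.174, 0.149 to 0.202) and 2.10-fold higher at D3, with 1481, 3450.3 and 24336 untreated against 257, 7259 and 26303 with FGF8. At D7 its arms were 24336 and 26303. Pdk4 was the only member past 2-fold in opposite directions on 2 days, and with total counts its D3 difference was 0.97 on the log2 scale, just under 2-fold.

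The HIF targets outside glycolysis ranged at D0 from -2.37 for Adm to 5.00 for Car9 on the log2 scale. Car9, at chr4:43506966-43513729, had 3 counts in the untreated D0 library and 134 in the FGF8 D0 library, a ratio of 38.9 with an interval of 13.0 to 191 that reflects the few untreated counts. At D3 both arms were low (14 and 21 counts), and at D7 Car9 held 232 and 861 normalized counts, 3.71-fold higher with FGF8 (3.27 to 4.21). Ndufa4l2, a mitochondrial protein that dampens respiration in hypoxia, held 14.7, 12.7 and 495 untreated against 131, 9.13 and 1487 with FGF8, and was 8.89-fold higher at D0 (4.64 to 19.1) and 3.01-fold at D7. Shmt2, whose exons overlap those of Ndufa4l2 on the other strand, was 1316 and 9453 without and with FGF8 at D0, and 3615 and 5684 at D3, where Ndufa4l2 had 10 and 13 counts. The part of Shmt2 reads in the Ndufa4l2 counts was not tested. Car9 and Ndufa4l2 were near the floor in both arms at D3, the day on which most glycolytic members were higher with FGF8.

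Bnip3, at chr7:138490690-138511253, held 749, 2582 and 19878 normalized counts over the untreated days and 1989, 9767 and 29786 over the FGF8 days, 2.66-fold higher at D0 (2.40 to 2.94), 3.78-fold at D3 (3.61 to 3.96) and 1.498-fold at D7. Ankrd37, a small ankyrin-repeat protein and HIF target, held 45.5, 35.6 and 415 without FGF8 and 157, 179 and 656 with it, with a ratio of 5.02 at D3 (3.39 to 7.71). Its overlapping neighbor Ufsp2 was 1260 and 2042 at D3, and its part in the Ankrd37 counts was likewise not tested. Hilpda, a lipid droplet protein that inhibits lipolysis, stayed within 2-fold, at 263, 118 and 500.4 without FGF8 and 442, 208 and 385 with it.

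Adm, at chr7:110226858-110229027, was lower with FGF8 on all days. It held 2015, 836 and 873 normalized counts without FGF8 and 388, 197 and 326 with it, so that each FGF8 library was below every untreated library. Adm was 5.20-fold lower at D0 (ratio 0.192, 0.169 to 0.218), 4.25-fold at D3 and 2.68-fold at D7. It was the only member 2-fold apart in the same direction on all 3 days, where 3.49% of 11813 genes were 2-fold lower and 0.0931% 2-fold higher on all days. Car12, another membrane carbonic anhydrase, was lower with FGF8 at D7, with 87 against 13 counts and a ratio of 0.171 (0.0876 to 0.308), against the direction of Car9 on that day.

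Of the oxygen-sensing machinery, the hydroxylase Egln3 had the largest ratios at D0 and D3. Egln3, at chr12:54225767-54250673, held 67.6, 659 and 12358 normalized counts at D0, D3 and D7 without FGF8 and 474, 3206 and 19363 with it. Its ratio was 7.01 at D0 (5.15 to 9.74), 4.86 at D3 (4.44 to 5.34) and 1.57 at D7. Egln1, the main hydroxylase of normal oxygen, was higher with FGF8 by less, with 1351, 2407 and 8654 untreated against 1819, 4745 and 11884 with FGF8. The alpha subunits differed little by comparison. Hif1a was 1.70-fold higher with FGF8 at D0, at 8434 and 14335, and lower at D3 (4889.8 and 4026) and D7 (4639 and 3531). Epas1, which encodes HIF2A, held 76.4, 3169 and 6445 without FGF8 and 52.5, 3055 and 5189.9 with it, with at most a 1.46-fold difference between arms.

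**Figure D2:**
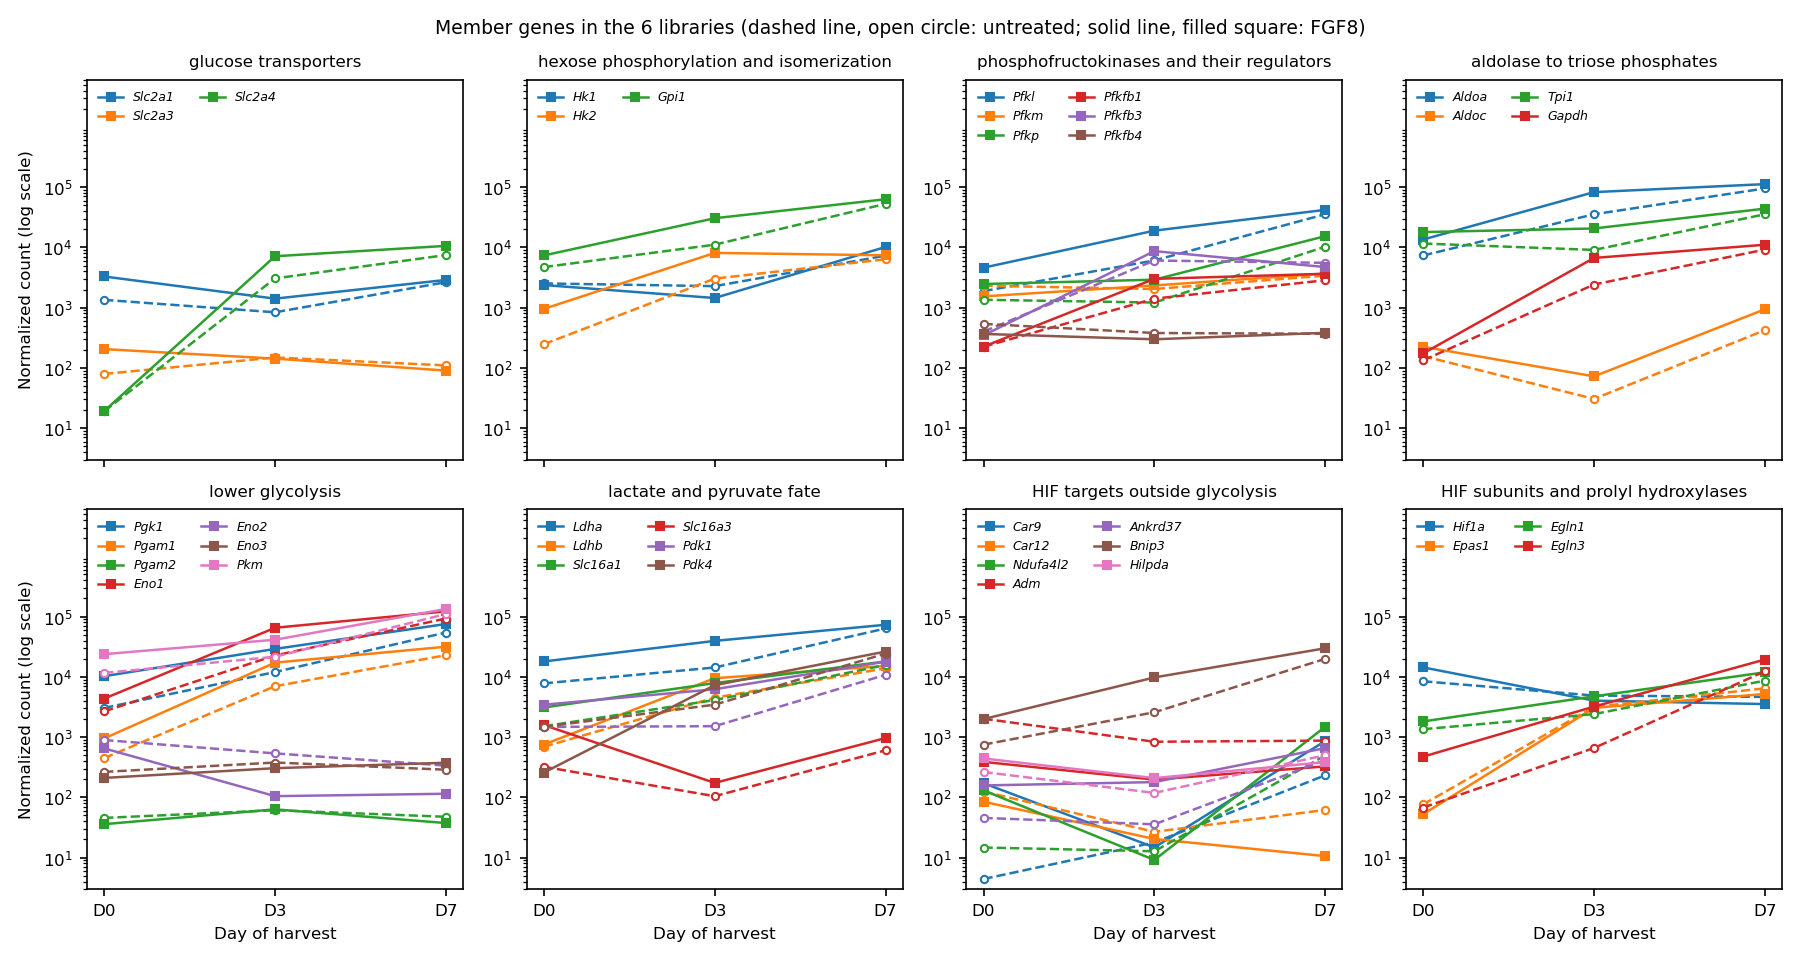
Normalized counts (log axis) of the 40 members at D0, D3 and D7, 1 panel per role group and 1 color per gene, with dashed lines and open circles for untreated and solid lines and filled squares for FGF8 libraries (1 library per point). Most solid lines lie above their dashed partners at D0 and D3 and close to them at D7, while the solid line of Adm lies below its partner on all days.

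Whether FGF8 had an effect in common to the 3 days was assessed in edgeR by the quasi-likelihood test over all 6 libraries, with day as a block and Benjamini-Hochberg adjustment over 14569 genes. Adm fell, with a log2 fold change of -1.98 (SE 0.238, adjusted p = 0.0464), and it was the only member past an adjusted p of 0.05. No member passed in the upward direction, where 0.0206% of all genes passed, and 1.25% of all genes passed downward. The call on Adm was narrow. Its adjusted p ranged from 3.7e-10 to 0.817 over the alternatives and was 0.0512 with DESeq2 size factors (no member then called, against 0.00686% and 0.748% of genes), 0.218 without D3, 0.287 without D7 and 0.817 without the day block, with an estimate between -2.25 and -1.78 in every setting. Before adjustment, 25 of the 40 members had a p under 0.05, as did 3389 of all genes, and the median estimate was 0.70 for the members and 0.0403 for all genes. DESeq2's Wald test with the same design called 18 members higher and 2 lower (Adm and Eno2), against 3.42% and 8.85% of all genes.

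Egln3 had the largest estimate among members with over 20 mean counts on each day, 1.85 (SE 0.444, adjusted p = 0.118 in edgeR), followed by Ankrd37 at 1.52 and Pdk1 at 1.31 (SE 0.271, adjusted p = 0.0985). Bnip3 was at 1.28, Hk2 at 1.16, Pgk1 at 1.14 and Pfkl at 1.04. Pfkp had the smallest adjusted p of the upward members, 0.0891, at 0.88 (SE 0.17). Car9 (2.05, SE 0.937) and Pdk4 (-0.37, SE 0.743), had the widest errors. Leaving out the D0 libraries left 10 members higher and 2 lower, with 3.96% and 11.6% of all genes called. The 10 were Aldoc, Ankrd37, Bnip3, Egln1, Egln3, Pdk1, Pfkfb1, Pfkp, Slc16a3 and Slc2a4, and the 2 were Adm and Eno2. Leaving out D3 or D7 left no member called in edgeR, as it left none of all genes. In these fits 10 and 20 members had an unadjusted p under 0.05, as did 1510 of 14256 and 1868 of 13743 genes.

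From D0 to D3, 17 members rose and 6 fell past an adjusted p of 0.05 in edgeR, with the arms as a block, where 26.2% of all genes rose and 19.8% fell. Those that rose were led by Slc2a4, with a log2 fold change of 8.03 (SE 0.379, adjusted p = 0.00194), and Epas1, at 5.68 (SE 0.211, adjusted p = 0.00192). On the log2 scale, Hk2 rose by 3.36, Pfkfb3 by 4.36, Pfkfb1 by 3.27, Egln3 by 2.98, Aldoa by 2.52 and Pfkl by 1.95. Gapdh (4.83), Pgam1 (4.14), Eno1 (3.59), Ldhb (3.26), Bnip3 (2.13), Pgk1 (1.77) and Gpi1 (1.74) are among the members with repeated coding sequence, without which 10 rose. Slc16a1 rose by 1.45 and Egln1 by 1.18.

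The 6 that fell included the lactate exporter Slc16a3, at -2.45 (SE 0.479, adjusted p = 0.0155), and the alpha subunit Hif1a, at -1.28 (SE 0.334, adjusted p = 0.0321). Aldoc was at -1.92, Adm at -1.08, Eno2 at -1.62 and Car12 at -2.05, Eno2 and Car12 with adjusted p of 0.0484 and 0.0489 in edgeR. Among the 17 members that did not pass was Slc2a1 at -0.92 (adjusted p = 0.054). By the 2-fold rule in both arms, 17 of 38 members were higher at D3 than at D0 and 4 were lower, against 16.6% and 11.8% of all genes.

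Between D3 and D7 most members were higher at D7, but none passed the test. This comparison shares the D3 libraries with the one before it. In edgeR no member passed in either direction, where 10 of 14569 genes did (0.0618% upward and 0.00686% downward), while 28 members and 3110 genes had an unadjusted p under 0.05. The median estimate was 1.46 for the members against -0.04 for all genes, and 34 of 40 estimates were above 0. In both arms, 19 of 39 members were 2-fold or more higher at D7 than at D3 and none was lower, against 5.07% and 2.35% of all genes. Over the whole course, 28 of 40 were higher and 2 lower at D7 than at D0 in both arms, against 20.2% and 14.7%. DESeq2's Wald test called 27 members higher and none lower, where 5.85% and 3.22% of genes were called, and edgeR without a filter on low counts called 9 higher and none lower, where 1% and 0.348% of genes were called. The largest estimates were those of Ndufa4l2 (6.41, SE 0.864, adjusted p = 0.0688 in edgeR), Car9 (4.75), Aldoc (3.70), Egln3 (3.49), Pfkp (2.71) and Ankrd37 (2.65).

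**Figure D3:**
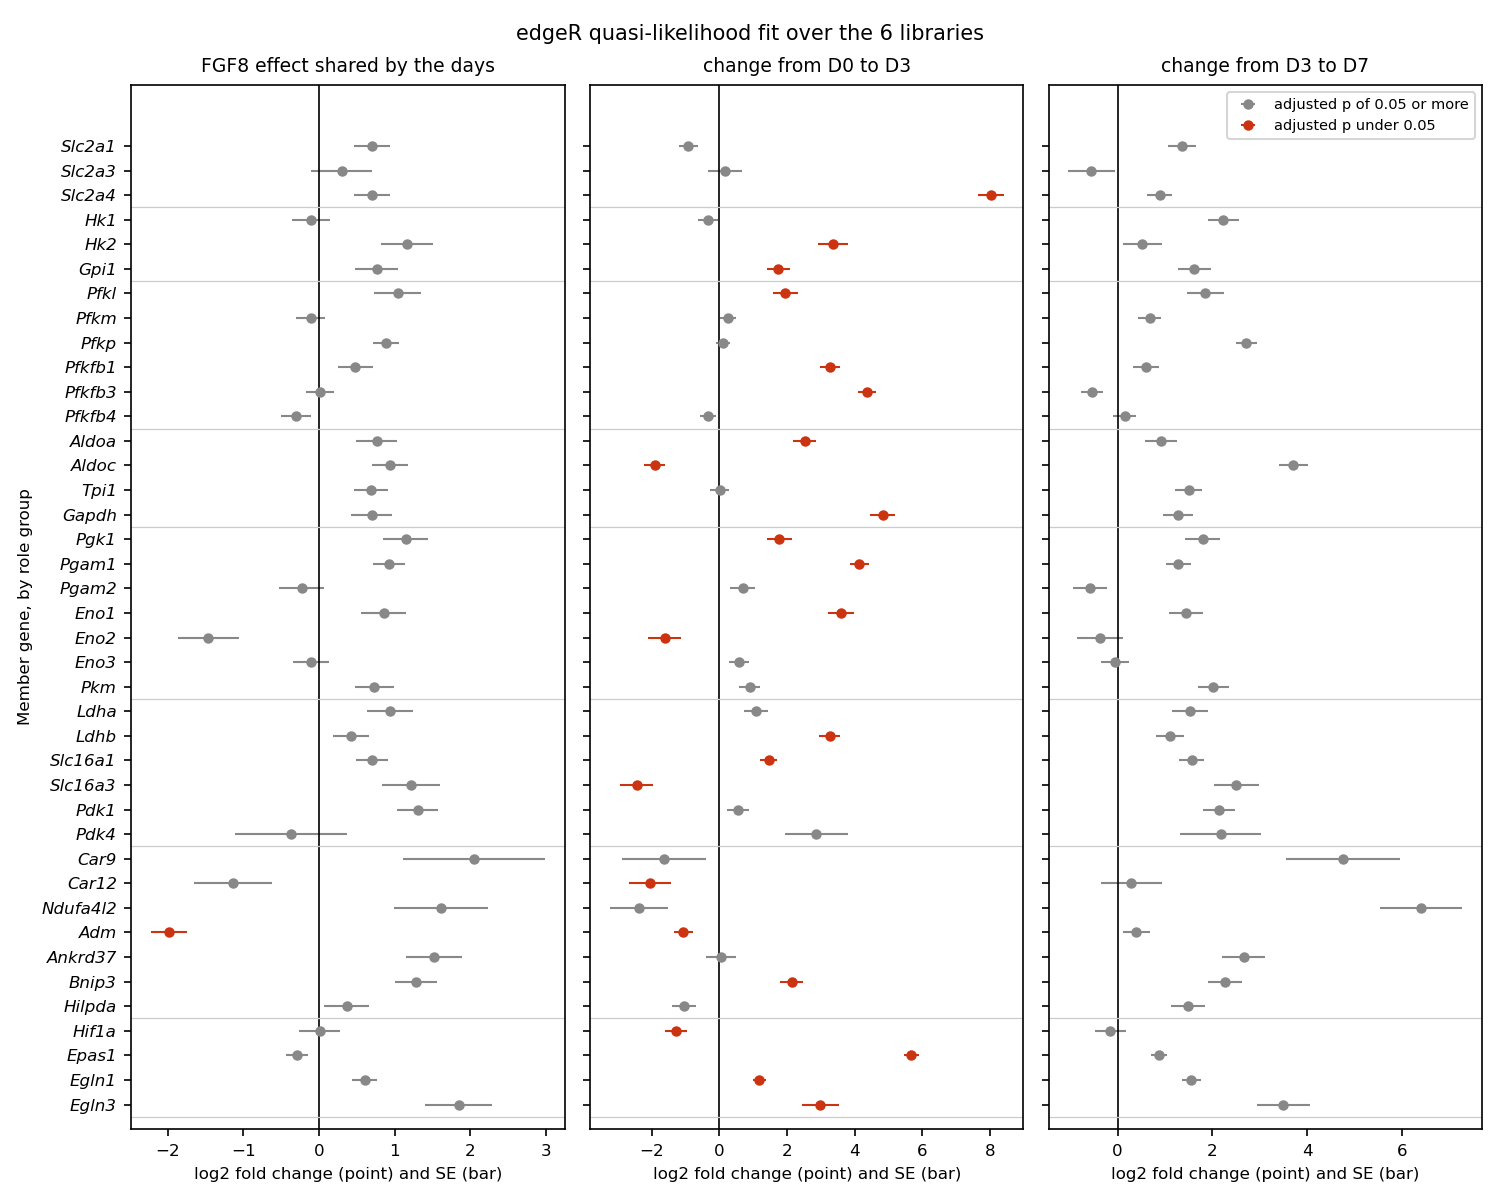
Log2 fold changes (points) with standard errors (bars) of the 40 members in the edgeR fit over the 6 libraries, for the FGF8 effect shared by the days (left), the change from D0 to D3 (middle) and from D3 to D7 (right), with red for an adjusted p under 0.05. Adm is the only red point on the left, the middle panel holds 17 red points above 0 and 6 below, and the right panel holds none.

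The leading isoform of several enzyme families differed between preadipocytes and adipocytes. Shares were computed among the members of a family from normalized counts per kilobase of exon. Measured paralogs outside the 40 members, such as Pdk2, Pdk3, Egln2, Slc2a8 and Hif3a, were left out. Among the glucose transporters, Slc2a1 held 95.3% of the family in the untreated D0 library and 28.1% at D7, and Slc2a4 held 1.22% and 71.2%. Among the HIF alpha subunits, the share of Epas1 was 1.32% at D0, 48.9% at D3 and 67.2% at D7 in the untreated arm, and 0.538%, 52.8% and 68.5% in the FGF8 arm. By the length of the canonical transcript, the FGF8 D3 share of Epas1 was 48.5%. The arms differed little in these pairs. They were further apart for Egln3, with 14.3%, 47.7% and 82.6% of the hydroxylase pair in the untreated libraries and 46.5%, 69.2% and 84.4% in the FGF8 libraries.

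Among the phosphofructokinases, Pfkl held 30.1% of the family at D0 without FGF8 and 52.7% with it, against 73.3% and 70.8% at D7. Hk2 held 9.40%, 58.6% and 48.0% of the hexokinase pair over the untreated days and 29.9%, 85.6% and 43.5% over the FGF8 days, highest at D3 in both arms. By the length of the canonical transcript its D3 shares were 42.3% untreated and 75.5% with FGF8, so its untreated lead at D3 depends on the length used. Pdk4 held 70.0% of its pair at D0 without FGF8 and 14.8% with it, and between 73.0% and 84.1% in the later libraries. In 5 of 12 families the leading gene at D7 differed from that at D0 in the untreated arm, and in 5 of 12 in the FGF8 arm, or 4 with the length of the canonical transcript in place of all exons. Aldoa, Pgam1, Eno1, Ldha and Slc16a1 led their families in all 6 libraries by either length.

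**Figure D4:**
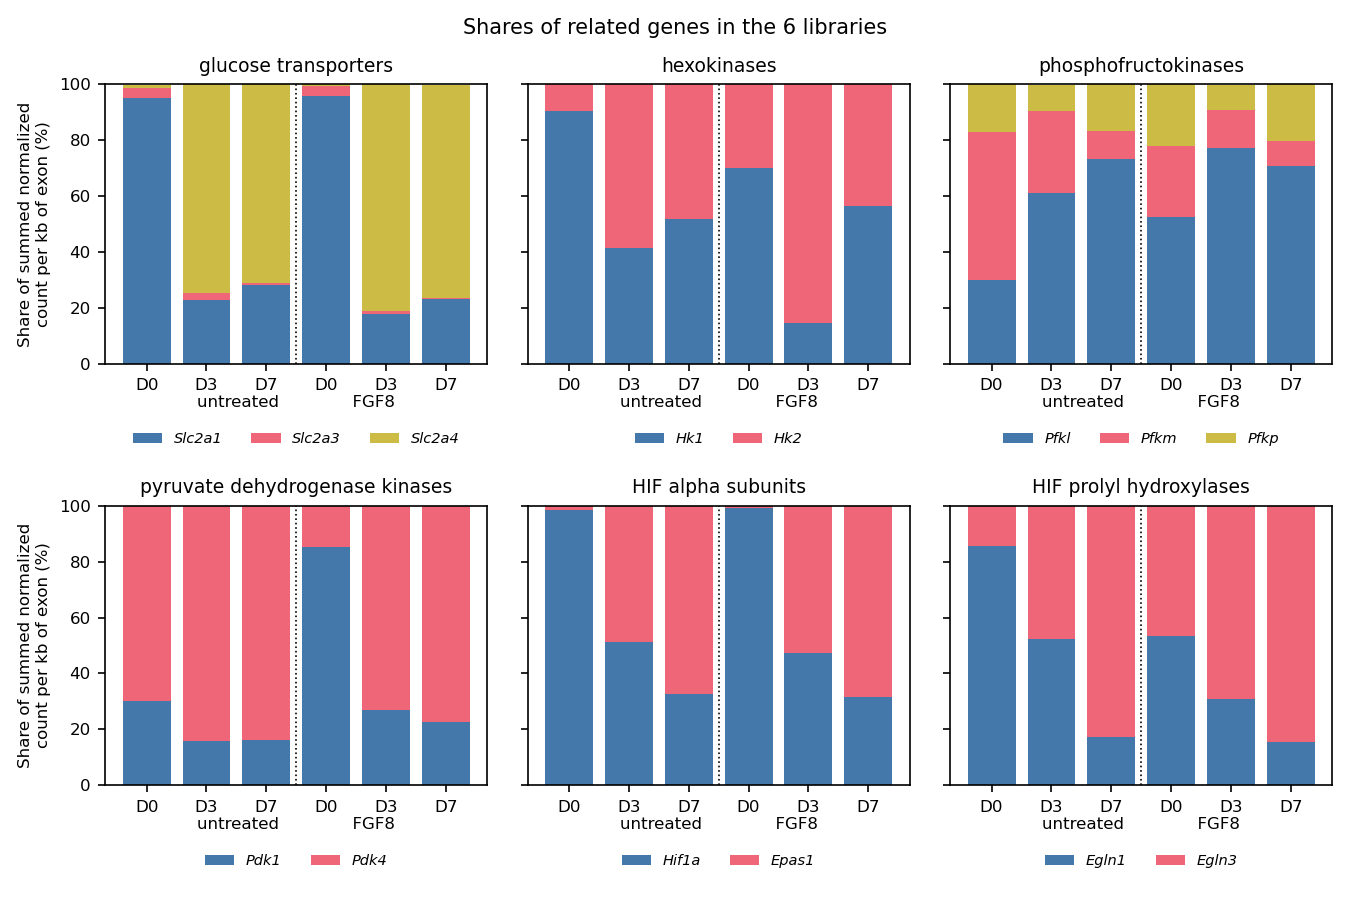
Share (%) of each gene in the summed normalized count per kilobase of exon of the members of its family, for 6 of the 12 families (panels) in the 6 libraries (bars, untreated left and FGF8 right of the dotted line). Slc2a4, Epas1 and Egln3 take the larger shares at D7 in both arms, and at D0 Pdk1 takes the larger share of its pair with FGF8 (85.2%) and the smaller one without.

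Other genes of the same pathways were taken from lists beside the members. Of 29 other HIF targets above the floor at D0, 9 were 2-fold higher with FGF8 and 3 were lower, against 7.27% and 10.8% of all genes, with 15 above and 14 below 0 in all. Those furthest apart were Lox, a collagen cross-linking oxidase, at 100629 normalized counts without and 4589.6 with FGF8, Ppp1r3c, a glycogen-targeting phosphatase subunit, at 648 and 71.7, and Stc2, a secreted glycoprotein, at 25 and 192. At D3, 7 of 29 were higher and 3 lower, against 3.8% and 12.1% of all genes, led by Ak4, a mitochondrial adenylate kinase (199.8 and 1386), and Ero1a, an oxidase of protein folding. Ero1a held 1328, 1984 and 20158 over the untreated days and 7774, 8999.5 and 36032 over the FGF8 days, and Vegfa, the angiogenic ligand, chosen after its values were seen, held 978, 7347 and 27908 and 4102, 13094 and 44032 in the same order. At D7 none of the 29 was 2-fold apart, where 1.12% of all genes were higher and 8.74% lower. Of the regulators of HIF, 1 of 13 was higher at D0 (Siah2, a ubiquitin ligase for the hydroxylases), and 1 of 14 at D3 and 1 of 13 at D7 were lower, in both cases Arnt2, a HIF beta subunit. From D0 to D3, Vhl, the ubiquitin ligase subunit, fell by 1.03 on the log2 scale (SE 0.165, adjusted p = 0.00974 in edgeR) and Hif3a rose from 0 and 1.28 normalized counts, without and with FGF8, to 52.2 and 65.3 (adjusted p = 0.00566).

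The other genes of glycolysis and glucose handling had 1 higher and 1 lower of 23 at D0, 5 and 3 of 26 at D3, and 0 and 1 of 28 at D7. By the same 2-fold rule, 7.27% of all genes were higher and 10.8% lower at D0. These shares were 3.8% and 12.1% at D3, and 1.12% and 8.74% at D7. Genes of pyruvate entry into mitochondria had 0 of 13 higher and 2 lower at D0, with Pdp1, a pyruvate dehydrogenase phosphatase, and Pcx, pyruvate carboxylase, as those 2, and a median difference of -0.39. At D3, 4 were higher and 1 lower, with a median of 0.90. The pentose phosphate pathway had none of 8 genes 2-fold apart at D0 or D7 and 1, the transketolase Tkt, higher at D3. From D0 to D3, when 26.2% of all genes rose and 19.8% fell, 10 of 13 pyruvate entry genes rose in edgeR and 2 fell, with Pcx at 6.52 (SE 0.647, adjusted p = 0.004) and Mpc1, a subunit of the mitochondrial pyruvate carrier, at 5.17. All 8 pentose phosphate genes rose, with Taldo1, transaldolase, at 3.03 (adjusted p = 0.00459 in edgeR). Of the other glycolysis and glucose handling genes 13 of 31 rose and 3 fell, and Pck1, which makes glycerol phosphate precursors in fat cells, rose from 0 and 0 normalized counts, without and with FGF8, to 328 and 619 (adjusted p = 0.00305 in edgeR). Mlxipl, which encodes the glucose-responsive factor ChREBP, rose from 2.94 and 3.84 normalized counts, without and with FGF8, to 3952 and 8067 (adjusted p = 0.00192 in edgeR). Of the other HIF targets 7 of 30 rose and 3 fell over the same days, shares no higher than those of all genes.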

How the data were processed

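RNA was measured in 6 bulk libraries, 1 for each combination of untreated or FGF8 and D0, D3 or D7. Per the labels and the methods, the authors prepared stranded mRNA libraries, trimmed reads with Trim Galore, aligned them with HISAT2 to GRCm39 and counted them per gene with featureCounts. The deposited values are raw counts per gene symbol, with totals of 16403254 to 38551551 per library. Tool versions, the annotation, the strand setting and the treatment of multi-mapping reads are not given in the sources used here.

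Counts were divided by DESeq2 (1.42.0) median-of-ratios size factors. Differences within a day are those of log2(normalized count + 1), with a 2-fold rule where the pair averaged at least 20 normalized counts, and ratios carry 95% exact binomial (Clopper-Pearson) intervals, which cover counting error only since fragments had no molecular identifiers. The test over all 6 libraries was edgeR (4.0.16) quasi-likelihood, with TMM factors, filterByExpr and the terms day and treatment. It was run over all genes, with Benjamini-Hochberg adjustment at 0.05 and 2 residual degrees of freedom. It treats each day's FGF8 difference, or each arm's day difference, as a repeat of a shared effect. Repeated coding sequence was searched as exact 100-base windows in GRCm39, with gene models from GENCODE M39. Of 26264 symbols, 23897 matched that annotation. Levels between genes were compared per kilobase of exon.

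The members and lists were chosen with earlier results of these data known. The text names all 40 members. Of the other lists it names the defining markers and the genes called in a comparison. Of the called genes, at most the 3 with the largest log2 fold change per list and comparison are named. Paralogs left out of the family shares are named as well. Lox, Ppp1r3c, Stc2, Ak4, Ero1a, Siah2 and Pdp1 fall outside this rule. They were named for their 2-fold differences within a day, and Vegfa was chosen after its values were seen. Alternatives were other size factors, DESeq2's Wald test, no filter on low counts, no day block, leaving out each day, another pseudocount, floor and fold rule, and, added after the data were seen, leaving out members with repeated sequence and the length of the canonical transcript.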

Additional observations from a re-analysis of the deposited data

Results flagged for a closer look

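Pdk4 differed between FGF8 and untreated cells in opposite directions on different days. The difference of log2(normalized count + 1) was -2.52 at D0, where the FGF8 library was lower, and 1.073 at D3, where it was higher. The difference between the days was not tested, because each arm has 1 library per day. With total counts the D3 difference was 0.97, which keeps its direction but falls just under 2-fold.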

How the results depend on the processing

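For the FGF8 effect shared by the days, edgeR called 0 members higher and 1 lower (Adm). The count of lower members was 0 with DESeq2 size factors and 0 without the day block, and DESeq2's Wald test gave 18 higher and 2 lower. Leaving out 1 day at a time gave 0 to 10 members higher and 0 to 2 lower, with both upper ends without D0. From D3 to D7, 0 members were called higher, against 27 with the Wald test and 9 with no filter on low counts. Without the 10 members with repeated coding sequence, an alternative added after the data were seen, fewer members were higher. The count went from 17 of 40 to 10 of 30 for D0 to D3, and from 20 to 11 at D3. At D7, a 1.5-fold rule gave 7 higher members in place of 3. The shares of all genes under that rule and with total counts are not given here. For none of these changes was the cause tested. All 23 calls from D0 to D3 were kept with DESeq2 size factors, with the Wald test and with no filter. No 2-fold difference within a day changed sign under TMM factors, total counts or a pseudocount of 5. Near 0, the sign changed for Slc2a4 (0.0077 to -0.0029) and Pfkfb1 (0.0037 to -0.0074) at D0 with TMM factors and for Pgam2 at D3 (0.048 to -0.058) with total counts. With total counts, 17 members in place of 20 were 2-fold higher at D3. No paired analysis was possible because each condition has 1 library, other than the edgeR fit itself, whose day block compares the arms within each day. Depth limits Car9, Ndufa4l2, Aldoc and Car12, which had few counts in at least 1 pair.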
